A study of Drosophila melanogaster with 8 samples.

Results

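The genes described here encode the enzymes and carriers that break down glucose to pyruvate, store and mobilise sugar as trehalose and glycogen, and burn pyruvate in the tricarboxylic acid (TCA) cycle. They were taken by name from a list of 46 current and older symbols, of which 35 were rows of the deposited table of 16727 genes. The members comprise 16 genes of glycolysis with lactate dehydrogenase and the glycerol-3-phosphate shuttle, 10 genes of sugar stores and glucose synthesis, and 9 genes of the TCA cycle with the entry of pyruvate and cytosolic malate dehydrogenase. RNA was sequenced from whole heads of female Drosophila labelled w1118, aged 7 d, with 15 heads per library. All flies carried (G4C2)36, the C9orf72 hexanucleotide repeat that causes amyotrophic lateral sclerosis and frontotemporal dementia, together with elavGS, a neuronal driver that is switched on by the drug RU486. In 4 induced libraries the flies had been fed 200 µM RU486 for 5 d, and in 4 uninduced libraries the ethanol vehicle for the same 5 d. RU486 was thus given with the repeat in every induced library, and the effects of the drug and of the repeat cannot be told apart here. The driver acts in neurons while the heads also hold glia, eye, fat body and muscle, and in such whole tissue fewer cells of a type and less RNA per cell cannot be told apart.

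Glycolysis splits glucose into pyruvate in the cytosol, and its NADH is reoxidised either by lactate dehydrogenase or by the glycerol-3-phosphate shuttle, in which a cytosolic dehydrogenase (Gpdh) and a mitochondrial partner (Gpo-1) pass electrons to the respiratory chain. Insects carry sugar in the blood mainly as trehalose, which is made in the fat body and cleaved by trehalase in the tissues that use it, and they keep glycogen as a local store. Fly glia are highly glycolytic and supply neurons with products of sugar breakdown, while the TCA cycle oxidises acetyl-CoA in the mitochondria of every cell of the head.

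Libraries held between 13247282 and 14962813 counts, and levels are given as CPM, counts scaled to a common library size and normalised for composition. Of the 9905 genes with enough counts to be tested, 36.5% passed an adjusted p of 0.05 in edgeR's quasi-likelihood test, 17.7% as higher and 18.8% as lower in induced heads. A member is said to have risen or fallen only where it passed this test. Photoreceptor markers summed to between 49425 and 52999 CPM in every library and all 13 neuronal markers were detected, in keeping with the label of the tissue as heads. Among the libraries, uninduced replicate 4 and the scaling of the libraries bear on the members, and both are described with the results they touch.

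Genes of trehalose turnover and the glycerol-3-phosphate shuttle and 6 of 9 TCA cycle members fell in induced heads, furthest Treh, to 52.4% of its uninduced level. Of 33 members tested, 17 fell, 1 rose and 15 did not pass, so that 51.5% were lower where 18.8% of all genes were. The largest falls were of Treh and Tps1, of Gpdh and Gpo-1 of the glycerol-3-phosphate shuttle, and of skap of succinyl-CoA synthetase. The next largest were of fbp and of the hexokinase Hex-C. In early glycolysis Hex-A, Pgi and Pfk did not pass the test, and neither did glycogen phosphorylase or citrate synthase. Differences are given as log2 changes, the log2 of the induced over the uninduced level as fitted, with the approximate standard error (SE). The median was -0.14 over 15 glycolysis genes, 0.0083 over 9 sugar store genes and -0.22 over 9 TCA cycle genes, beside 0.0011 over all genes tested. For 18 members every induced library lay below every uninduced library and for 1 member above, where 17.9% and 18.1% of all genes tested did so. A fall past -0.58 was found for Gpdh, Gpo-1, Tps1, Treh and skap, 5 members, and for 4.04% of all genes tested. The members that did not enter the test were Pglym87 and Pepck. When libraries were scaled to their totals only, the median of all genes moved up by 0.18 and 9 of the 17 falls still passed: Hex-C, Gpdh, Gpo-1, Tps1, Treh, fbp, skap, Scsalpha and Mdh1. The other 8 falls, of Ald, Tpi, Gapdh2, Pgk, UGP, l(1)G0334, l(1)G0255 and Mdh2, did not pass under that scaling, and those of UGP and l(1)G0255 turned to 0.0040 and 0.031. A change of scaling shifts all genes by nearly the same amount. The median of all members relative to that of all genes, -0.15 under either scaling, was therefore bound to stay and is no test of the falls.

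**Figure D1:**
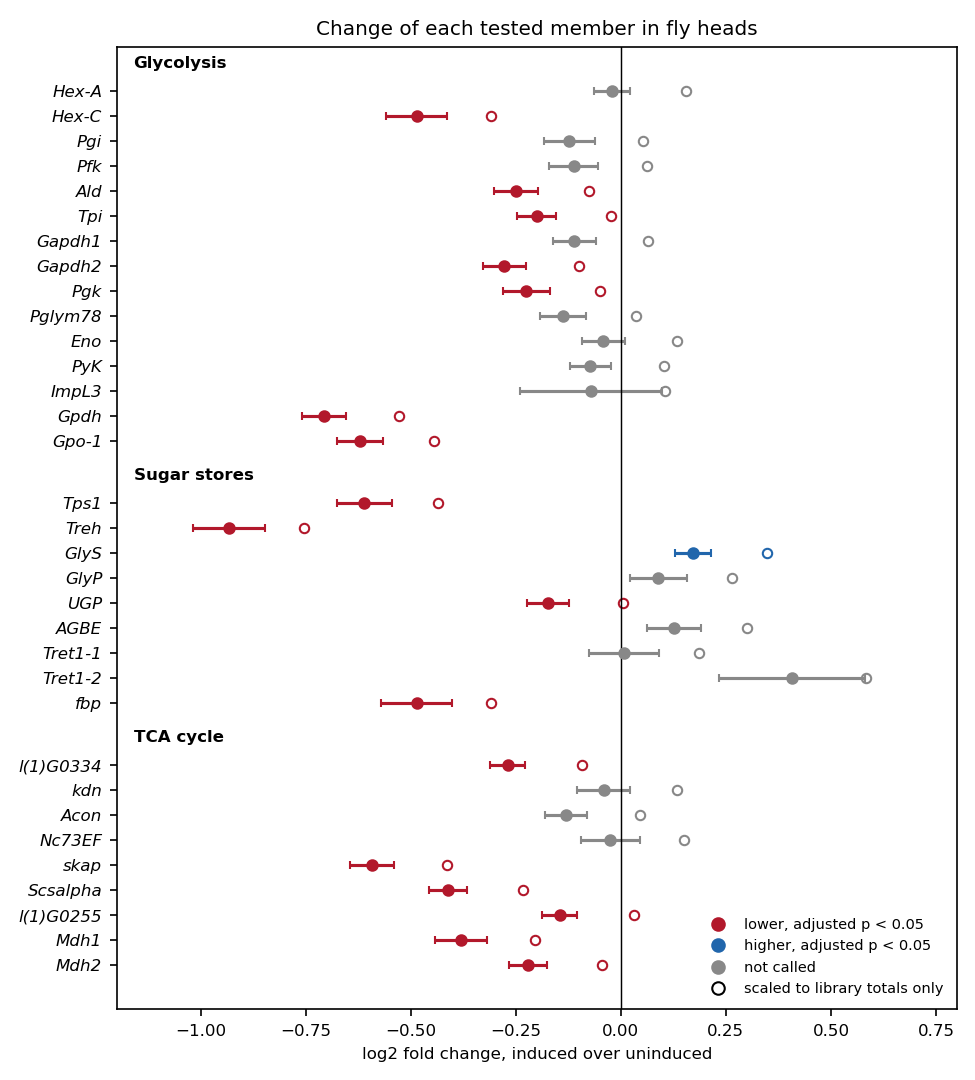
The log2 change of induced over uninduced heads is plotted for each of the 33 tested members in pathway order, with the approximate standard error as a bar and the value under scaling to library totals only as an open circle. Treh lies furthest left at -0.93, and GlyS is the member called higher at 0.17.

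At the first step of glycolysis the hexokinases Hex-A and Hex-C phosphorylate glucose, and Hex-C fell while Hex-A did not pass. Hex-C, on chromosome 2R from 15218837 to 15220329 of the BDGP6 (dm6) assembly, had 200.5, 207, 210.2 and 237 CPM in uninduced replicates 1 to 4 and 163, 129, 159.8 and 158 CPM in induced replicates 1 to 4. The groups did not overlap, and induced replicate 2 was the lowest. Hex-C fell to 71.4% of the uninduced mean (log2 change -0.49, SE 0.072, adjusted p = 1.2e-04). Hex-A, on chromosome X from 9585675 to 9589813, had 384, 362, 358 and 356 CPM in uninduced and 354, 363, 364 and 357 CPM in induced replicates. All 4 induced values of Hex-A lay within or just below the uninduced range, and its log2 change of -0.022 (SE 0.043) did not pass (adjusted p = 0.728). With libraries scaled to their totals, Hex-A passed as higher (0.16, adjusted p = 0.0176). Glucose-6-phosphate isomerase (Pgi) ranged from 346 to 380 CPM in uninduced and from 298 to 361 CPM in induced heads, with a log2 change of -0.12 (adjusted p = 0.135). Phosphofructokinase (Pfk), the enzyme that commits sugar to glycolysis, went from 217 ± 16.1 to 201 ± 9.86 CPM (SD, n = 4; log2 change -0.11, adjusted p = 0.146), and its adjusted p was 0.0137 without uninduced replicate 4, in which it was lowest.

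In the middle of the pathway the falls were small but separated the groups. Aldolase (Ald), which cuts fructose bisphosphate into triose phosphates, had 1129.8, 1121, 1192 and 1067 CPM in uninduced and 996, 943, 957 and 895 CPM in induced replicates. Every induced library was lower, by a log2 change of -0.25 (SE 0.052, adjusted p = 0.0017). Triose phosphate isomerase (Tpi) fell by a similar amount (log2 change -0.20, adjusted p = 0.0035). Glyceraldehyde-3-phosphate dehydrogenase, the step that makes NADH, is encoded by Gapdh1 and Gapdh2. Gapdh2 had 806, 806, 806 and 859 CPM in uninduced and 727, 634, 675 and 667 CPM in induced replicates. It fell to 82.5% (log2 change -0.28, SE 0.052, adjusted p = 7.9e-04) with no overlap between the groups. Gapdh1 had 575, 563, 575 and 555 CPM in uninduced and 569, 489.7, 528 and 515 CPM in induced replicates. Induced replicate 1 lay among the uninduced libraries, and the log2 change of -0.11 did not pass (adjusted p = 0.108), although it did without that replicate (adjusted p = 0.0341). Phosphoglycerate kinase (Pgk), which makes ATP, had 227, 239, 238 and 233 CPM in uninduced and 208, 182, 219 and 193 CPM in induced replicates. Its groups did not overlap, and it fell by a log2 change of -0.23 (SE 0.056, adjusted p = 0.0060). Under scaling to library totals, none of these falls passed, with log2 changes of -0.075 for Ald, -0.024 for Tpi, -0.10 for Gapdh2 and -0.049 for Pgk.

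The last steps of glycolysis did not pass the test. Phosphoglycerate mutase (Pglym78) had 212, 228, 222 and 207 CPM in uninduced and 215, 184, 204 and 187 CPM in induced replicates, and the groups overlapped (log2 change -0.14, adjusted p = 0.0658). It passed with upper quartile normalisation (adjusted p = 0.0482), without induced replicate 1 (adjusted p = 0.0209) and without uninduced replicate 4 (adjusted p = 0.0393). Its paralog Pglym87 was hardly detected, with 0 to 1 counts per uninduced and 0 to 3 counts per induced library. Enolase (Eno) went from 788 ± 37.8 to 766 ± 31.6 CPM (SD, n = 4; log2 change -0.042, adjusted p = 0.568), and pyruvate kinase (PyK) from 737 ± 22.1 to 700.4 ± 27.5 CPM (log2 change -0.073, adjusted p = 0.26). In induced heads they stood at 97.2% and 95.1% of the uninduced mean. Lactate dehydrogenase, listed under its older name ImpL3, was among the members with the lowest levels. It had 24.5, 13.5, 12.5 and 13.8 CPM in uninduced and 15.8, 14.5, 16.5 and 14.5 CPM in induced replicates. Uninduced replicate 1 alone was high, and without it the log2 change turned from -0.072 to 0.21 (adjusted p = 0.0706 against 0.776 with all libraries).

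Both arms of the glycerol-3-phosphate shuttle fell. The cytosolic enzyme Gpdh, which reduces dihydroxyacetone phosphate and so also supplies the glycerol backbone of lipids, lies on chromosome 2L from 5943643 to 5948968. It had 1070.2, 995, 1064 and 1113 CPM in uninduced and 687, 661, 620.2 and 632 CPM in induced replicates. The highest induced library was far below the lowest uninduced library, and Gpdh fell to 61.3% of the uninduced mean (log2 change -0.71, SE 0.052, adjusted p = 1.7e-07). The mitochondrial enzyme Gpo-1, on chromosome 2R from 15857752 to 15862755, had 261, 276, 244 and 238 CPM in uninduced and 176, 159.7, 161 and 166 CPM in induced replicates. It fell to 65.1% (log2 change -0.62, SE 0.055, adjusted p = 9.1e-07), again without overlap. Leaving out any 1 library gave log2 changes from -0.73 to -0.68 for Gpdh and from -0.65 to -0.57 for Gpo-1. Of the exon length of Gpdh, 22.1% is shared with a noncoding RNA on the opposite strand, CR44986, which had 264 to 340 counts per library where Gpdh had 9582 or more. CR44986 was itself lower, by a log2 change of -0.35 (adjusted p = 0.0040), and without knowledge of the strand setting reads of the shared stretch cannot be assigned.

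Treh had the largest fall of the members tested, and Tps1 fell by about as much as Gpo-1. Trehalose-6-phosphate synthase (Tps1), which makes trehalose from UDP-glucose and glucose-6-phosphate, lies on chromosome 2L from 4388327 to 4392778. It had 1584, 1523, 1561 and 1537 CPM in uninduced and 1089, 894, 1109 and 972 CPM in induced replicates. All induced libraries were lower, those of replicates 2 and 4 most, and Tps1 fell to 65.5% (log2 change -0.61, SE 0.065, adjusted p = 5.8e-06). Trehalase (Treh), which releases glucose from trehalose, lies on chromosome 2R from 21074018 to 21088945. It had 476, 469, 496 and 622 CPM in uninduced and 301, 273, 253 and 254.5 CPM in induced replicates. Uninduced replicate 4 was the highest, but the fall was also seen against the other uninduced libraries. Treh fell to 52.4% (log2 change -0.93, SE 0.085, adjusted p = 1.3e-06), and by a log2 change of -0.82 without uninduced replicate 4. Exons of Treh overlap those of Rbpn-5 on the opposite strand over 560 bases, and Rbpn-5 had a log2 change of 0.0060 (adjusted p = 0.946).

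The trehalose transporter Tret1-1 did not follow. It had 334.4, 332, 330.2 and 379 CPM in uninduced and 337, 305, 418 and 324 CPM in induced replicates, so that induced replicate 3 was the highest library and induced replicate 2 the lowest. Its log2 change was 0.0083 (SE 0.083, adjusted p = 0.95) and turned to -0.10 without induced replicate 3. Its paralog Tret1-2 was scarce, at 3.52, 2.68, 2.61 and 2.33 CPM in uninduced and 3.95, 2.9, 4.56 and 3.38 CPM in induced replicates, on 30 to 72 counts per library. The groups overlapped and the log2 change of 0.41 did not pass (adjusted p = 0.0828), but it did without uninduced replicate 1 (0.55, adjusted p = 0.0368), without induced replicate 2 (0.51, adjusted p = 0.0383) and under scaling to library totals (0.58, adjusted p = 0.0092).

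Neither glycogen synthase, glycogen phosphorylase nor the branching enzyme fell. Glycogen synthase (GlyS) was the member that rose, from 128, 126, 118 and 124 CPM in uninduced to 139.8, 134, 142 and 142 CPM in induced replicates. The groups did not overlap, and the rise was small (log2 change 0.17, SE 0.044, adjusted p = 0.0067). Glycogen phosphorylase (GlyP), which breaks glycogen down, had 509, 521, 559.97 and 429 CPM in uninduced and 525, 538, 558 and 527 CPM in induced replicates. All induced values lay inside the uninduced range, whose lowest value was uninduced replicate 4 (log2 change 0.089, adjusted p = 0.333). The branching enzyme AGBE went from 100.1 ± 6.81 to 109 ± 9.34 CPM (SD, n = 4; log2 change 0.13, adjusted p = 0.142). Under scaling to library totals GlyP and AGBE passed as higher, by log2 changes of 0.26 and 0.30 (adjusted p = 0.0081 and 0.0013). UDP-glucose pyrophosphorylase (UGP), which feeds the synthesis of both glycogen and trehalose, had 356, 333.97, 347 and 379.9 CPM in uninduced and 328, 297, 321 and 311 CPM in induced replicates. It fell by a log2 change of -0.17 (SE 0.051, adjusted p = 0.0159), a call that did not hold without uninduced replicate 1 (adjusted p = 0.0513) or without induced replicate 2 (adjusted p = 0.0565). Exons of UGP overlap those of PGRP-LF on the opposite strand over 602 bases.

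**Figure D2:**
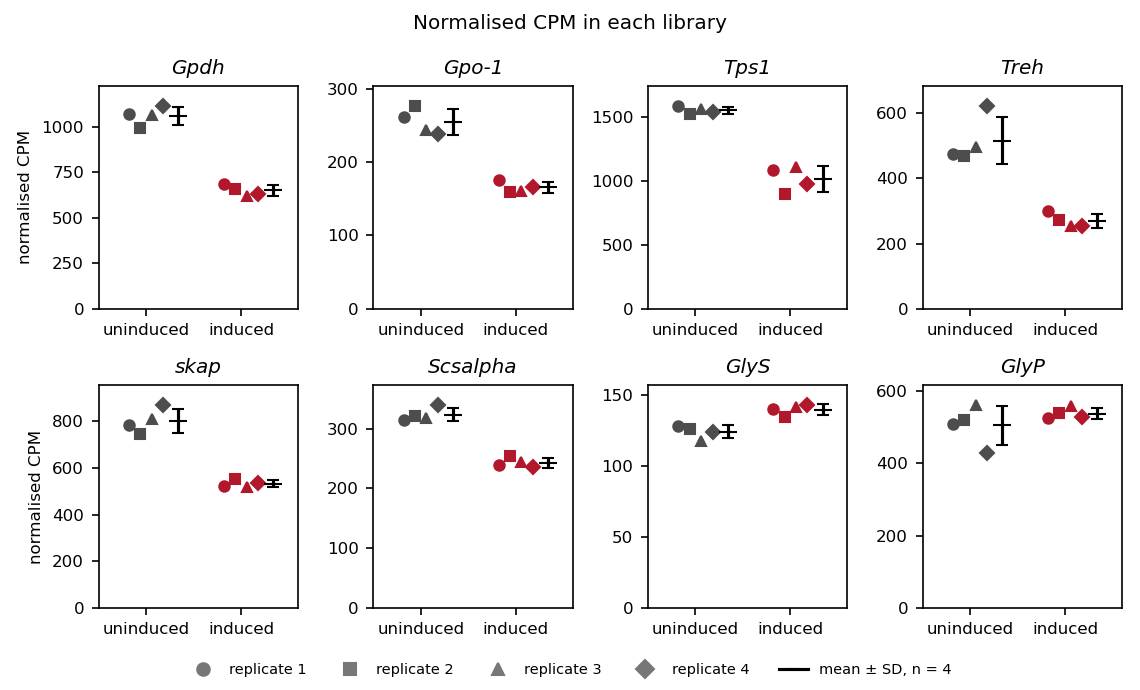
Normalised CPM (vertical axis, starting at 0) is shown in each of the 4 uninduced and 4 induced libraries for 8 members, with a symbol for each replicate and the mean ± SD beside them. For Gpdh, Gpo-1, Tps1, Treh, skap and Scsalpha every induced point is below every uninduced point, for GlyS every induced point is above, and for GlyP the groups overlap.

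Of the genes of glucose synthesis, fructose-1,6-bisphosphatase (fbp), which reverses the phosphofructokinase step, fell. It had 187, 183, 184 and 233 CPM in uninduced and 157, 139.8, 144 and 122 CPM in induced replicates. Uninduced replicate 4 stood above the other uninduced libraries, and no induced library reached them. The fall was to 71.4% (log2 change -0.49, SE 0.084, adjusted p = 4.4e-04), and its log2 change was -0.39 without uninduced replicate 4 (adjusted p = 4.6e-04). Phosphoenolpyruvate carboxykinase, Pepck in the table, had 0 counts in all 8 libraries. Every base of its exons, 2486 in all on chromosome 2R from 18536767 to 18539416, is shared with a gene annotated on the same strand, CG45087, which also had 0 counts in all 8 libraries, so that these zeros do not show whether Pepck was expressed. Pyruvate carboxylase (PCB), which makes oxaloacetate from pyruvate, is not a row under that symbol. Under its CG number, CG1516, looked up after the other values were seen, it had 551, 529, 552 and 509.9 CPM in uninduced and 423, 377, 404 and 368 CPM in induced replicates. No induced library of CG1516 reached the uninduced ones (log2 change -0.45, SE 0.054, adjusted p = 1.8e-05), and the fall also passed under scaling to library totals (-0.27, adjusted p = 8.0e-04).

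In the TCA cycle all 9 members had a negative log2 change, where 4934 of the 9905 genes tested did, and 6 fell, beside 18.8% of all genes. When scaled to library totals, 5 of the 9 were negative and 3 fell (skap, Scsalpha and Mdh1), while kdn, Acon, Nc73EF and l(1)G0255 turned positive. Pyruvate enters through the pyruvate dehydrogenase complex, whose E1 alpha subunit is listed as l(1)G0334 (now Pdha), on chromosome X from 4702284 to 4705265. It had 404, 405, 399 and 399 CPM in uninduced and 342, 331, 334.1 and 325 CPM in induced replicates. Replicates were tight and the groups far apart relative to their spread, with a fall to 82.9% (log2 change -0.27, SE 0.041, adjusted p = 1.4e-04). Under scaling to library totals this fall shrank to -0.093 and did not pass (adjusted p = 0.103).

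The members for citrate synthase, aconitase and 2-oxoglutarate dehydrogenase did not pass. Citrate synthase (kdn) went from 511 ± 50.7 to 496 ± 10.9 CPM (SD, n = 4; log2 change -0.041, adjusted p = 0.654). Aconitase (Acon) ranged from 846 to 958 CPM in uninduced and from 813 to 840 CPM in induced heads, without overlap, and its log2 change of -0.13 lay just outside the threshold (adjusted p = 0.0532). Acon passed with DESeq2 (adjusted p = 0.0182), with upper quartile normalisation (adjusted p = 0.0454) and without uninduced replicate 4 (adjusted p = 0.0077). The E1 subunit of 2-oxoglutarate dehydrogenase (Nc73EF, now Ogdh) went from 525 ± 58.5 to 516 ± 17.4 CPM (log2 change -0.025, adjusted p = 0.809). In uninduced replicate 4, kdn and Nc73EF were at 81.6% and 80.6% of the mean of the other uninduced libraries.

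Succinyl-CoA synthetase, the step of the cycle that makes a nucleotide triphosphate directly, fell in both of the subunits among the members. The beta subunit skap (now ScsbetaA), on chromosome 3R from 8938724 to 8943027, had 783, 747, 809 and 868 CPM in uninduced and 524, 552, 518 and 535 CPM in induced replicates. Induced libraries lay close together and well below all uninduced libraries, at 66.3% of their mean (log2 change -0.59, SE 0.053, adjusted p = 1.1e-06). The alpha subunit Scsalpha, on chromosome 3L from 3814211 to 3818383, had 315, 321, 317 and 339 CPM in uninduced and 239, 254, 243 and 235 CPM in induced replicates. It fell to 75.2% (log2 change -0.41, SE 0.045, adjusted p = 6.8e-06). The other beta subunit, Sucb (now ScsbetaG), was less abundant at 19.5 ± 3.03 CPM in uninduced and 17.1 ± 1.82 CPM in induced heads and had a log2 change of -0.19 (adjusted p = 0.19).

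Fumarase and the malate dehydrogenases fell by less. Fumarase, listed as l(1)G0255 (now Fum1), had 173, 164, 167 and 165 CPM in uninduced and 152, 155.9, 148 and 149 CPM in induced replicates. The groups did not overlap (log2 change -0.15, SE 0.041, adjusted p = 0.0127), but without uninduced replicate 1 the adjusted p was 0.0607. Cytosolic malate dehydrogenase (Mdh1), part of the malate-aspartate shuttle, had 527, 523, 527 and 588 CPM in uninduced and 443, 374, 438 and 408 CPM in induced replicates. It fell to 76.8% (log2 change -0.38, SE 0.061, adjusted p = 2.2e-04), with induced replicate 2 lowest and uninduced replicate 4 highest. Mitochondrial malate dehydrogenase (Mdh2), the closing enzyme of the cycle, had 459.7, 475, 470.5 and 471 CPM in uninduced and 425, 385, 407 and 392 CPM in induced replicates. It fell to 85.8% (log2 change -0.22, SE 0.045, adjusted p = 0.0015), and its log2 change was -0.045 (adjusted p = 0.441) under scaling to library totals.

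Ratios of a pair of genes within a library do not depend on how libraries are scaled, and 8 pairs were compared by an exact two-sided permutation test, whose smallest p with 4 libraries against 4 is 0.0286. The Hex-A to Hex-C ratio was 1.92, 1.75, 1.7 and 1.5 in uninduced and 2.18, 2.81, 2.27 and 2.26 in induced replicates. Every induced ratio was higher, and the mean log2 ratio differed by 0.47 (exact p = 0.0286, adjusted over the 8 pairs 0.0762). The Gapdh1 to Gapdh2 ratio was 0.714, 0.699, 0.714 and 0.647 in uninduced and 0.783, 0.773, 0.782 and 0.771 in induced replicates, again without overlap (log2 difference 0.17, exact p = 0.0286, adjusted 0.0762). Cytosolic relative to mitochondrial malate dehydrogenase was lower in every induced library, at 1.15, 1.1, 1.12 and 1.25 in uninduced and 1.04, 0.971, 1.08 and 1.04 in induced replicates (log2 difference -0.16, exact p = 0.0286, adjusted 0.0762). Thus 3 pairs reached the smallest p that the design allows and 0 passed after adjustment. Adjusted over the 8 pairs, that p passes only where at least 5 pairs reach it, so no pair could pass here. Without uninduced replicate 1, whose ImpL3 was high, 5 of the 8 pairs reached the smallest p of the exact test, adjusted to 0.0457 each. These were the same 3 together with Tret1-1/Tret1-2 and ImpL3/l(1)G0334. That adjusted p follows from the number of pairs at the smallest p, and this library stood out by its values in these same data. The pairs are therefore not counted as changed, and their calls under the other omissions of a library are not given here.

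**Figure D3:**
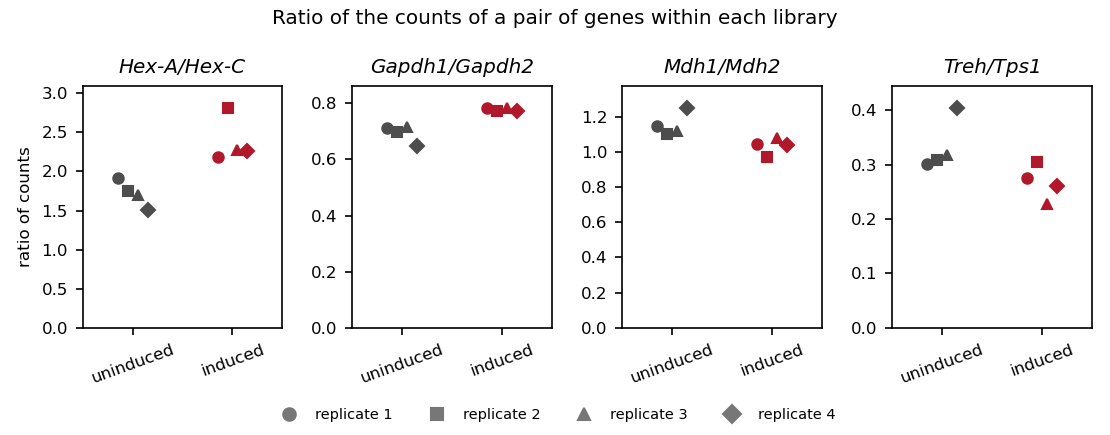
The ratio of the counts of a pair of genes (vertical axis, starting at 0) is plotted for each library, with a symbol for each replicate. The groups separate for Hex-A/Hex-C, Gapdh1/Gapdh2 and Mdh1/Mdh2 and overlap for Treh/Tps1, where uninduced replicate 4 is the highest at 0.405.

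The other 5 pairs overlapped between the groups. Trehalase relative to Tps1 was 0.301, 0.308, 0.318 and 0.405 in uninduced and 0.276, 0.305, 0.228 and 0.262 in induced replicates (log2 difference -0.31, exact p = 0.0571, adjusted 0.114). The log2 difference was -0.40 for Tret1-1 to Tret1-2 (exact p = 0.0857), -0.076 for GlyP to GlyS (exact p = 0.543) and 0.25 for lactate dehydrogenase to pyruvate dehydrogenase (exact p = 0.257). The Pglym78 to Pglym87 ratio rests on the 0 to 3 counts of Pglym87 (exact p = 0.514).

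Per kilobase of annotated exon, the most abundant tested member in uninduced heads was Gapdh2 at 568 CPM per kb, followed by Tps1 at 531 and Mdh1 at 419.9 CPM per kb. In induced heads these levels were 468, 348 and 322 CPM per kb, so that Tps1 stood below Gapdh1 (383 CPM per kb in uninduced and 355 in induced heads). The lowest levels were those of Tret1-2 at 1.64 and of ImpL3 at 8.28 CPM per kb in uninduced heads. Phosphofructokinase was at 49.7 and Hex-A at 88.2 CPM per kb, below most other enzymes of glycolysis. The annotation used for counting is not given in the sources used here and may differ from the one the exon lengths come from, so that these levels are approximate.

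Other genes of the same pathways were read from the same test. Of 13 further sugar store genes tested, 3 rose and 3 fell, which is near the 17.7% and 18.8% of all genes. Those that rose were the glycogen-targeting subunits of protein phosphatase 1 Gbs-70E (listed as CG9238, log2 change 0.56, adjusted p = 2.3e-05) and Gbs-76A (0.44, adjusted p = 3.9e-04), and Glycogenin (0.19, adjusted p = 0.016), which primes the glycogen chain. Of other glycogen genes in the list, CG9485 (0.20, adjusted p = 0.0721) and PhKgamma (-0.083, adjusted p = 0.188) did not pass. Those that fell were Pepck2, listed as CG10924, from 13.6 ± 3.94 to 4.88 ± 1.01 CPM (SD, n = 4; log2 change -1.48, adjusted p = 4.0e-05), CG5171 (-0.63, adjusted p = 1.3e-05) and phosphoglucomutase Pgm (-0.25, adjusted p = 0.0084). Pepck2 is the paralog of Pepck and had 58 to 237 counts per library. Of 7 tested paralogs and regulators of glycolysis, Pfrx, the enzyme that sets fructose-2,6-bisphosphate, fell (-0.26, adjusted p = 0.0034) and CG7059 rose (0.24, adjusted p = 0.0362). Scaled to library totals, the falls of Pgm (-0.071) and Pfrx (-0.085) did not pass, and the 3 rises and the other 2 falls of the sugar store list did.

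Falls were also found at the entry of pyruvate and in the pentose phosphate branch. Over all genes tested, 18.8% fell and 17.7% rose. Of 7 pyruvate entry genes 4 fell and 0 rose. They were the mitochondrial pyruvate carrier genes Mpc1 (-0.47, adjusted p = 7.7e-05) and CG9399 (-0.40, adjusted p = 4.7e-05), pyruvate dehydrogenase kinase Pdk (-0.43, adjusted p = 4.6e-05), which inhibits the complex, and the E1 beta subunit Pdhb, listed as CG11876 (-0.14, adjusted p = 0.0244). Of 7 pentose phosphate genes 4 fell, namely 6-phosphogluconolactonase Pgls (listed as CG17333, -0.51, adjusted p = 4.7e-04), the transketolase gene CG8036 (-0.47, adjusted p = 7.6e-05), 6-phosphogluconate dehydrogenase Pgd (-0.34, adjusted p = 8.6e-04) and Rpe (listed as CG30499, -0.19, adjusted p = 0.0352). The gateway enzyme glucose-6-phosphate dehydrogenase, Zw, had a log2 change of 0.031 (adjusted p = 0.729). Under scaling to library totals 3 of the 4 falls in each of these lists passed, while Pdhb (CG11876) turned to 0.041 (adjusted p = 0.494) and Rpe (CG30499) was at -0.012 (adjusted p = 0.884).

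Of 16 further genes of the TCA cycle and its exits 7 fell and 1 rose, beside 18.8% and 17.7% of all genes tested. The largest falls were of malic enzyme Men, from 1127 ± 138 to 421 ± 11.6 CPM (SD, n = 4; log2 change -1.42, adjusted p = 4.9e-09), CG1544 (-1.09, adjusted p = 2.0e-07) and the NADP-dependent isocitrate dehydrogenase Idh (-0.31, adjusted p = 3.0e-04). The gene that rose was l(1)G0156, now Idh3a, a subunit of the NAD-dependent isocitrate dehydrogenase of the cycle (0.25, adjusted p = 0.0010). Other subunits of this enzyme, Idh3b (listed as CG6439, -0.12, adjusted p = 0.0523) and Idh3g (listed as CG5028, -0.10, adjusted p = 0.0715), did not pass. In both, every induced library lay below every uninduced library, and under scaling to library totals they were at 0.062 and 0.075. Cytosolic aspartate aminotransferase Got1, the partner of Mdh1 in the malate-aspartate shuttle, fell (-0.29, adjusted p = 1.0e-03), while its mitochondrial counterpart Got2 was at 0.080 (adjusted p = 0.535). The succinate dehydrogenase subunits SdhC and SdhD (listed as CG10219) fell (-0.19 and -0.15, adjusted p = 0.0109 and 0.0193), whereas SdhA and SdhB had log2 changes of 0.020 and -0.0022 (adjusted p = 0.815 and 0.98). Of these 7 falls, 2 passed under scaling to library totals, those of Men (-1.24) and CG1544 (-0.91). Idh (-0.13), Got1 (-0.11), ATPCL (-0.059) and SdhC (-0.016) did not pass under it, and SdhD (CG10219) turned to 0.024.

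Most markers of the fat body also fell in induced heads. The shares over all genes tested were 18.8% lower and 17.7% higher. Of 8 tested fat body markers 7 fell and 0 rose, from Lsp2, a larval serum protein (-4.47), to the yolk protein Yp2 (-0.35), and none of the 9 listed was at 0 in all libraries, although Fbp1 had 0 to 11 counts per library. Their summed level was 141389 to 152830 CPM in uninduced and 90584 to 115529 CPM in induced heads, without overlap. Of 12 photoreceptor markers 3 rose (trpl, inaD and chp) and 1 fell (Rh4). Muscle markers, of which 0 of 12 fell and 1 rose (Act88F, log2 change 1.01), summed to 4969 to 5663 CPM in uninduced and 5152 to 5658 CPM in induced heads. Of 10 glial markers 4 fell (the glutamate transporter Eaat1 at -0.88, moody, Mdr65 and Gli) and 3 rose (nrv2, wrapper and alrm). Their sum went from a range of 2133 to 2235 CPM to one of 1861 to 2001 CPM, and the mean of Eaat1 from 450 to 245 CPM. Of 13 neuronal markers 5 rose (elav, Syn, Cha, cpx and futsch) and 3 fell (VAChT, VGlut and Gad1), with sums of 4886 to 5440 CPM and 5820 to 6219 CPM. The mean of cpx went from 1201 to 1707 CPM and that of futsch from 346 to 567 CPM. The shifts of the glial and neuronal sums thus came largely from Eaat1 and from cpx and futsch. Under scaling to library totals 6 of the 7 falls of fat body markers and 3 of the 4 of glial markers passed, and 0 of the 3 falls of neuronal markers, with VAChT turning to 0.040. As higher passed 8 of 12 muscle, 9 of 12 photoreceptor, 10 of 13 neuronal, 5 of 10 glial and 0 of 8 fat body markers under it. Of the 9905 genes tested, 4488 were higher under that scaling. The part of fat body and glial RNA in the changes of the members was not tested.

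The same marker sums differed between libraries of a group. Within the uninduced group, replicate 4 had the highest sum of fat body markers (152830 CPM) and the lowest sums of muscle (4969 CPM) and neuronal markers (4886 CPM). It was the highest uninduced library for 10 members, at 107 to 129% of the mean of the other uninduced libraries. It was the lowest for 14 members. Over all genes tested it was the highest uninduced library in 34.6% and the lowest in 33.7%, so either position was common among all genes. A link of the members to the marker sums was not tested. Because this library is part of the uninduced mean, the calls were made again without it. All 17 falls still passed, and Pfk, Pglym78 and Acon, in which it was the lowest, passed as lower too. Within the induced group, replicate 2 had the lowest sum of fat body markers (90584 CPM) and was the lowest library for 20 of the 33 members, while replicate 1 had the highest sum (115529 CPM) and was the highest library for 17 members, beside 25.5% and 29.8% of all genes tested. Induced replicate 4 had nearly as low a sum (93046 CPM) but was the lowest library for 6 members, beside 22.7% of all genes tested.

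**Figure D4:**
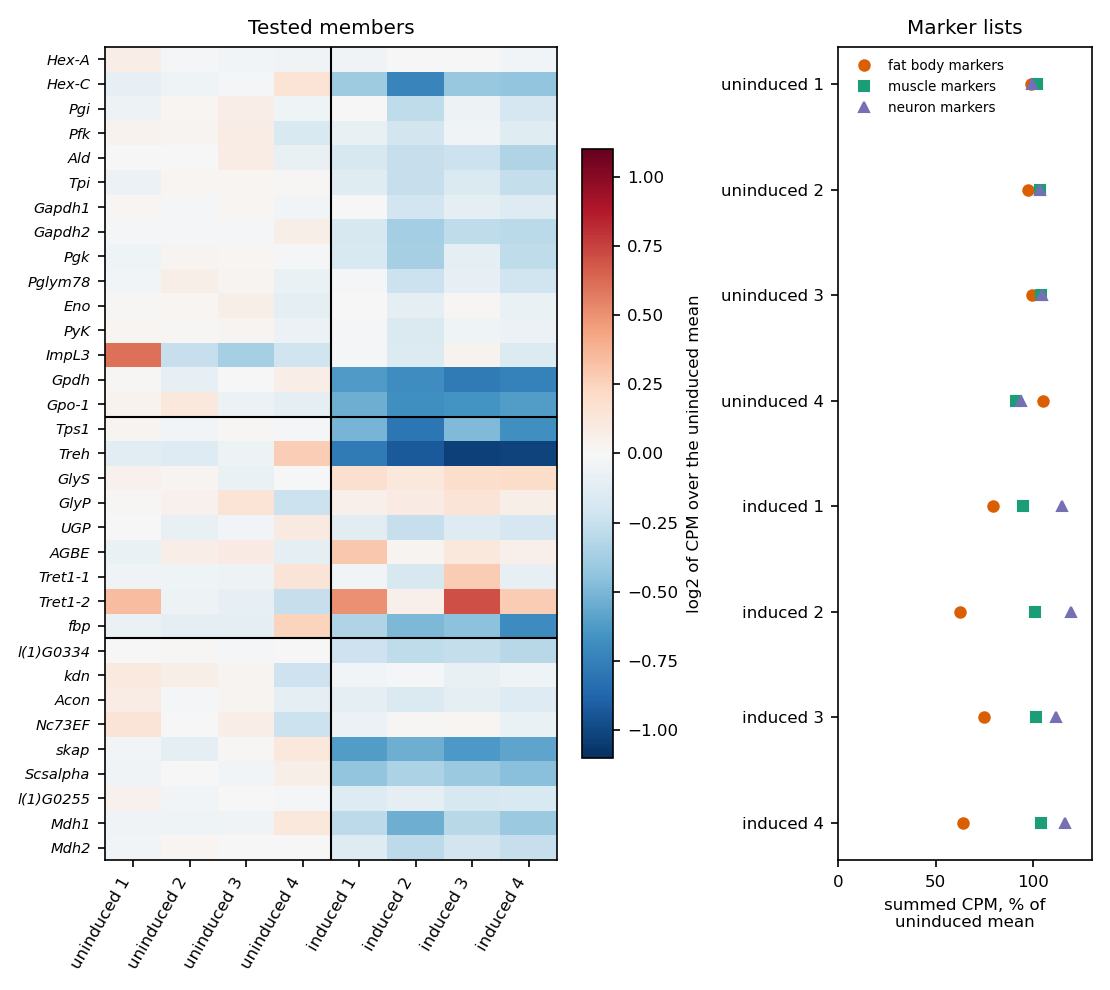
The left panel shows each tested member (rows, in pathway order, with lines between glycolysis, sugar stores and TCA cycle) in each library (columns) as the log2 of its CPM over the mean of the uninduced libraries. The right panel shows the summed CPM of 3 marker lists in each library as a percentage of the uninduced mean, with fat body markers lowest in induced replicate 2 and highest in uninduced replicate 4.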

How the data were processed

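RNA from 8 libraries of 15 heads each was sequenced. Per the study's methods and the deposited labels, the authors aligned paired-end reads to Dm6, counted them per gene and compared the groups with DESeq2. The deposited counts are whole raw counts per gene and were used as the authors gave them. The 8 normalised columns and the authors' own columns of fold changes and p-values in the same table were not used. The strand setting of the counting is not given in the sources used here.

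Counts were analysed in R 4.3.3 with edgeR 4.0.16 (TMM normalisation, filterByExpr, quasi-likelihood test, 4 libraries against 4, Benjamini-Hochberg adjustment over the 9905 genes tested, threshold 0.05). CPM values use TMM library sizes, and TMM factors were 0.913 to 0.954 in uninduced and 1.04 to 1.08 in induced libraries. Ratios were taken of counts plus 0.5. DESeq2 1.42.0, other scalings and filters, a replicate block and leaving out each library were alternatives. The fit was tested on simulated data. Values in every library are given for members past the threshold, at most 6 per group by size of change, for the gene pairs and for a few further members, and for other lists the 3 largest changes past the threshold plus those singled out after their values were seen. The members and lists were chosen with earlier results of these data known. The labels call the libraries of a group biological replicates. Positions and exon lengths are from the Ensembl annotation of the BDGP6 (dm6) assembly.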

Additional observations from a re-analysis of the deposited data

Results flagged for a closer look

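Among 82 sets of 4 libraries looked at, 10 held 1 library that stood apart from the other 3, where chance gives about 1 in 20, or 4.1. Uninduced replicate 4 was the highest of its group in Gapdh2 (859 CPM, with the others at 806), Tret1-1 (379 CPM, others 330.2 to 334.4), fbp (233 CPM, others 183 to 187) and Mdh1 (588 CPM, others 523 to 527). Uninduced replicate 1 was the lowest in Tpi (222 CPM, others 234 to 235) and the highest in ImpL3 (24.5 CPM, others 12.5 to 13.8), and so in the log2 ratio of ImpL3 to l(1)G0334 (-4.04, others -4.99 to -4.85). Induced replicate 2 was the lowest in Hex-C (129 CPM, others 158 to 163) and the highest in the log2 ratio of Hex-A to Hex-C (1.49, others 1.123 to 1.19). In the log2 ratio of Pglym78 to Pglym87, uninduced replicate 4 was the lowest (10.8, others 12.5), which rests on 1 count of Pglym87 against 0 in the others.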

How the results depend on the processing

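The 17 falls passed with DESeq2, with RLE and upper quartile normalisation and with the replicate block, and 9 of them and the rise of GlyS passed in every setting run. Scaling to library totals only gave the widest change: over all genes 4488 were higher and 874 lower, glycolysis had 1 higher and 3 lower with a median of 0.037, sugar stores had 4 higher with a median of 0.19, and the TCA cycle had 3 lower with a median of -0.045. Under that scaling the log2 change turned positive for Hex-A (0.16, passed as higher), Pgi (0.052), Pfk (0.062), Gapdh1 (0.065), Pglym78 (0.037), Eno (0.13), PyK (0.10), ImpL3 (0.11), UGP (0.0040), kdn (0.13), Acon (0.046), Nc73EF (0.15) and l(1)G0255 (0.031). The cause was not tested. Leaving out 1 library at a time gave 1 to 2 sugar store genes called higher and a median of -0.095 to 0.064 for that group. It also turned the sign of Hex-A (-0.028 to 0.010), ImpL3 (-0.17 to 0.21), Tret1-1 (-0.10 to 0.067), kdn (-0.10 to 0.0041), Nc73EF (-0.089 to 0.034) and the GlyP to GlyS log2 ratio (-0.15 to 5.8e-05), none of which passed the test in any of these fits. Samples of the 2 groups that share a replicate number did not deviate together (correlations -0.069 to 0.023), so the numbers were not taken as pairs. With them as a replicate block 1671 genes were higher and 1788 lower, against 1750 and 1866 without it. At 13247282 counts or more per library, Pglym87 had 0 to 3 counts and Tret1-2 had 30 to 72 counts per library. Whether depth limited them was not tested.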
